A study of Mus musculus with 13 samples.

Results

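YAP1 and TAZ (gene symbols Yap1 and Wwtr1) are transcriptional coactivators that have no DNA-binding domain and act through the TEAD family of DNA-binding factors. The 8 genes described here are Yap1, Wwtr1, Tead1, the kinase gene Lats2, and Ctgf, Cyr61, Amotl2 and Ankrd1, which are widely used as readouts of YAP/TAZ and TEAD activity. They were chosen by symbol. Of the 8 symbols, 7 were found among the 11761 gene rows of the deposited expression table, in 8 rows, because Lats2 has a row for each of a pair of transcript identifiers (uc011zmg.1 and uc007udj.1). Ankrd1, a nuclear ankyrin-repeat protein gene, was not analysed here. All 8 rows passed the filter on low values, a mean of at least 1 CPM (reads scaled to library size) over the 6 libraries, which 11643 rows passed.

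In the Hippo pathway, the STK3 and STK4 kinases activate LATS1 and LATS2, and these phosphorylate YAP1 and TAZ, which are then kept in the cytoplasm or degraded. When the pathway is quiet, as on a stiff matrix or in spread cells, YAP1 and TAZ enter the nucleus and activate TEAD-bound genes. Among these are secreted matricellular proteins and, as feedback, LATS2 and AMOTL2, which restrain YAP1 and TAZ. In fat, TAZ is known as a repressor of PPARG, the nuclear receptor that directs fat cell differentiation. RNA levels do not report the phosphorylation or location of these proteins.

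RNA came from epididymal white fat of Adipoq-NuTRAP mice on the C57BL/6J background. NuTRAP is a reporter allele that tags ribosomes with GFP and nuclei with mCherry, here in cells in which the adiponectin promoter is active. One group of animals was fed chow and the other a high-fat diet (HFD), each for 10 weeks, with 3 libraries per diet, and both groups carry the reporter. GFP-tagged ribosomes were pulled down from whole-tissue homogenate (translating ribosome affinity purification), so the RNA is ribosome-bound RNA enriched for adipocytes. The labels do not give sex or age. They also do not say whether each replicate is a different animal, so p-values reflect only how far the libraries of a diet differ, and that difference may be technical. Chromatin libraries of the same study were not analysed here.

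The promoter sequences are shown because the letters GGAATG, the core of the motif that TEAD factors bind, stood before the starts of genes that were higher, lower and not called in HFD alike. All are RefSeq sequences of GRCm38.p6 (the same assembly as mm10), printed 5′ to 3′ in the direction of transcription, with GGAATG or its reverse complement CATTCC in capitals. Cyr61 (RefSeq symbol Ccn1) and Wwtr1 are given for the 250 bases before the start, chr3:145649986-145650235 (minus strand) and chr3:57575911-57576160 (minus strand). Yap1 and Amotl2 are given as windows of 30 bases, chr9:8004720-8004749 (minus strand) and chr9:102717727-102717756 (plus strand).
Cyr61: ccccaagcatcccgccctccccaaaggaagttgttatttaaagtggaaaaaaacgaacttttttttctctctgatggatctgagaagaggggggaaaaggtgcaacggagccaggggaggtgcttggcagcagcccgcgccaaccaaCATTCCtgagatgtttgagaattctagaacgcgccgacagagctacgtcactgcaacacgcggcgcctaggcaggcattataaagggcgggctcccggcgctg
Wwtr1: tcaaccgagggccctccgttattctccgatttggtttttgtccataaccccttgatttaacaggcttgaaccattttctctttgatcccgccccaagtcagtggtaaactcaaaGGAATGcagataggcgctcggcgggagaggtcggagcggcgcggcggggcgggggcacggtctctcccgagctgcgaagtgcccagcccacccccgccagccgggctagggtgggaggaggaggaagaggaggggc
Yap1: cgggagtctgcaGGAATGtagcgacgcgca
Amotl2: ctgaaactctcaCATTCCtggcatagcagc

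The match began 103 bases before the start in Cyr61, 136 in Wwtr1, 141 in Yap1 and 65 in Amotl2. The Amotl2 start is an internal one, as its window lies inside the RefSeq span of the gene, which begins at 102717091. For Wwtr1, a further RefSeq start with an overlapping window shares the same match. Lats2 has RefSeq promoters for a pair of starts and held no match in the 250 bases before either, and Ankrd1 held 2 matches. No entry was matched for Ctgf and Tead1. Searched on both strands in the 250 bases before the start, GGAATG was present for 5 of the 6 genes with an entry, and for 14.4% of the 27025 genes in the RefSeq promoter table. The longer form ACATTCC was present for 3 of the 6 genes (Yap1, Cyr61 and Amotl2) and for 3.75% of all genes. These are matches of letters and not measured binding sites. Cyr61, Amotl2 and Ankrd1 are on the list as known readouts of TEAD activity, so their matches are not an independent result.

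The effective depth, recovered from the steps between low values, was 7430000 reads in chow replicate 3 and 23200000 to 39400000 reads in the other 5 libraries. Chow replicate 3 also had 117 rows at the table minimum, and the other libraries had 0 to 7. Differences were tested on log2(CPM + 1) with limma (two-sided), p-values were adjusted by Benjamini-Hochberg over the 11643 rows, with a threshold of 0.05. By this rule 35.1% of rows were called, 19.1% higher and 16.0% lower in HFD, and the diets did not overlap for 50.2%. Of the calls 54.4% were higher, a share that was 89.8% with the median adipocyte marker gene set equal between libraries and 65.3% with equal library totals. It was 46.4% with quantile normalization and 49.9% among rows with a mean of at least 5 CPM. Lower calls numbered 1863, and 1162 without HFD replicate 3. The median log2 fold change of all tested rows was -0.004. CPM values are not divided by transcript length, so levels are compared between diets within a gene and not between genes. In such bulk RNA, fewer cells of a type and less RNA per cell cannot be told apart.

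Of the coactivator genes, Wwtr1 rose in HFD and Yap1 was not called. Wwtr1, which encodes TAZ, lies on chromosome 3 at 57455644 to 57575910. Its level was 309, 311 and 282 CPM in chow replicates 1, 2 and 3, and 419, 516 and 526 CPM in HFD replicates 1, 2 and 3. Every HFD library stood above every chow library, with means of 301 ± 16.0 and 487 ± 59.3 CPM (SD, n = 3 each). The log2 fold change was 0.69 (SE 0.13, adjusted p by limma 0.00394), or 1.62-fold between the mean CPM values, and 16.6% of all tested rows had a larger one.

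Yap1, on chromosome 9 at 7931999 to 8004638, stood at 228, 228 and 276 CPM on chow against 239, 261 and 236 CPM on HFD. The diets overlapped, with the highest value in chow replicate 3. The log2 fold change was 0.01, with a 95% interval from -0.27 to 0.30 (limma adjusted p 0.947), so a change of more than 0.30 in either direction lies outside the interval. The paralogs were also compared directly, as the difference between Wwtr1 and Yap1 in log2(CPM + 1) within each library. It was 0.44, 0.45 and 0.03 in chow and 0.81, 0.98 and 1.16 in HFD, without overlap. The mean difference was 0.67 higher in HFD (exact two-sided permutation test, p = 0.1, the smallest that 3 against 3 libraries allow).

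Tead1 encodes a DNA-binding partner of both coactivators and lies on chromosome 7 at 112679356 to 112906784. It stood at 191, 162 and 162 CPM on chow against 172, 169 and 242 CPM on HFD. HFD replicate 3 was the highest, and the other 5 libraries lay between 162 and 191 CPM. Tead1 was not called (log2 fold change 0.16, 95% interval -0.20 to 0.53, limma adjusted p 0.465).

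**Figure D1:**
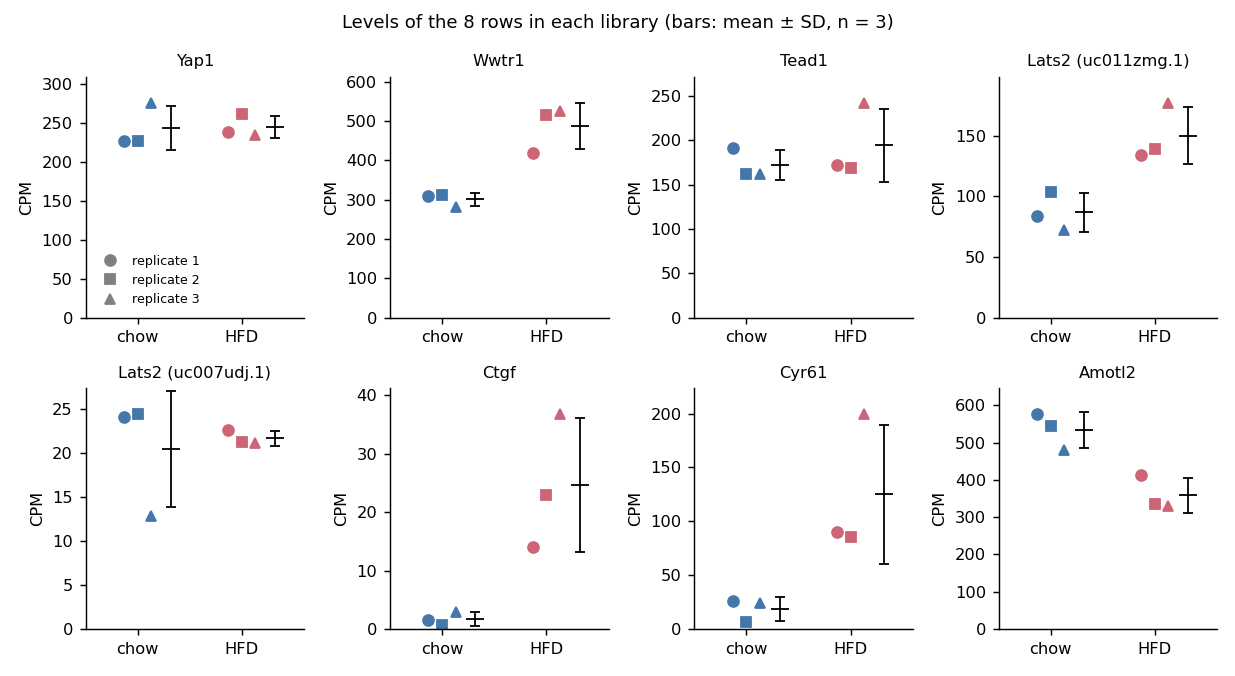
CPM (y axis, linear from 0) of the 8 rows in each chow (blue) and HFD (red) library, with symbols for the replicate and black bars for the mean ± SD of 3 libraries. Ctgf, Cyr61, Wwtr1 and the Lats2 row uc011zmg.1 are higher in all HFD libraries, Amotl2 is lower in all of them, and the diets overlap for Yap1, Tead1 and the Lats2 row uc007udj.1.

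Lats2, the kinase gene that is both an inhibitor and a target of YAP1 and TAZ, rose in 1 of its rows. The gene lies on chromosome 14 at 57689662 to 57746212. The row uc011zmg.1 stood at 83.9, 104 and 72.5 CPM on chow against 134, 139 and 177 CPM on HFD. The diets did not overlap, with means of 86.8 ± 15.9 and 150 ± 23.5 CPM (SD, n = 3 each). Its log2 fold change was 0.79 (SE 0.17, adjusted p by limma 0.00604). The row uc007udj.1 stood at 24.1, 24.4 and 12.8 CPM on chow against 22.6, 21.3 and 21.1 CPM on HFD, and was not called (log2 fold change 0.13, 95% interval -0.39 to 0.66, limma adjusted p 0.690).

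The low chow value of the row uc007udj.1 came from chow replicate 3, the shallowest library, where it rested on 95 reads. How reads common to both transcripts were assigned is not given in the sources used here, so the split between the rows is uncertain. With the rows summed, an alternative chosen after seeing the data, Lats2 stood at 108, 128 and 85.3 CPM on chow against 157, 160 and 198 CPM on HFD. The summed log2 fold change was 0.69 (SE 0.17, adjusted p by limma 0.0121). The row uc011zmg.1 held 77.7% to 85.0% of that sum in chow and 85.6% to 89.4% in HFD.

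Amotl2, which encodes an angiomotin-family protein that binds YAP1 and holds it outside the nucleus, was the member that fell. It lies on chromosome 9 at 102717091 to 102733418. Its level was 576, 545 and 481 CPM on chow against 413, 335 and 329 CPM on HFD. All HFD libraries lay below all chow libraries, with means of 534 ± 48.4 and 359 ± 46.9 CPM (SD, n = 3 each). The log2 fold change was -0.58 (SE 0.14, adjusted p by limma 0.0116), and 12.7% of all tested rows had a lower one. The call was lost without HFD replicate 2 (-0.53, limma adjusted p 0.0508) and without HFD replicate 3 (-0.52, limma adjusted p 0.0577).

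The secreted target genes Ctgf and Cyr61 had the largest changes among the members. Both encode matricellular proteins of the CCN family, which bind integrins and growth factors, and both are also known to respond to other signals, Ctgf to TGF-beta and Cyr61 to growth factors as an immediate early gene. Ctgf (RefSeq symbol Ccn2) lies on chromosome 10 at 24595442 to 24598683. It stood at 1.56, 0.624 and 2.97 CPM in chow, which are 36, 20 and 22 recovered reads, and at 14.0, 22.9 and 36.8 CPM in HFD, which are 472, 733 and 1448 reads. The lowest HFD library was above the highest chow library, and the spread was wide in both diets, with means of 1.72 ± 1.18 and 24.6 ± 11.5 CPM (SD, n = 3 each).

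The ratio of the mean CPM values was 14.3 for Ctgf. Its log2 fold change was 3.23 (SE 0.39, adjusted p by limma 0.000314), and 0.533% of all tested rows had a larger one. As Ctgf was low in chow, the size depends on the value added before taking logs. It was 2.08 with 5 CPM added and 4.0 with the deposited log2 values used directly. Gm15270, an lncRNA gene, overlaps the span of Ctgf in RefSeq, and the library kit does not mark strand.

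Cyr61 lies on chromosome 3 at 145646971 to 145649985. It stood at 26.2, 6.11 and 23.9 CPM on chow against 90.5, 85.0 and 199 CPM on HFD. The diets did not overlap, with chow replicate 2 the lowest and HFD replicate 3 the highest library, as for Ctgf. Means were 18.7 ± 11.0 and 125 ± 64.5 CPM (SD, n = 3 each), a ratio of 6.67. The log2 fold change was 2.79 (SE 0.50, adjusted p by limma 0.00252), and 0.996% of tested rows had a larger one. It was 2.16 without chow replicate 2 and 2.39 without HFD replicate 3, and was called in both cases (limma adjusted p 0.00162 and 0.00852).

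Of the 8 rows, 4 were called higher and 1 lower, against 19.1% and 16.0% of all tested rows. Diets did not overlap for 5 of the 8, against 50.2% of all rows. With 8 rows chosen by name, these counts are given as a description. The rows for Wwtr1, Lats2 (uc011zmg.1), Ctgf and Cyr61 were called higher under all 17 alternatives run. Setting the median adipocyte marker gene equal between libraries moved the median of all genes to 0.39. Under that scaling Wwtr1 was 1.11, the Lats2 row uc011zmg.1 was 1.20, Yap1 was called (0.43, limma adjusted p 0.0382) and Amotl2 was not (-0.16, limma adjusted p 0.524). Yap1 thus lay near the shifted median of all genes, and Amotl2 below it.

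**Figure D2:**
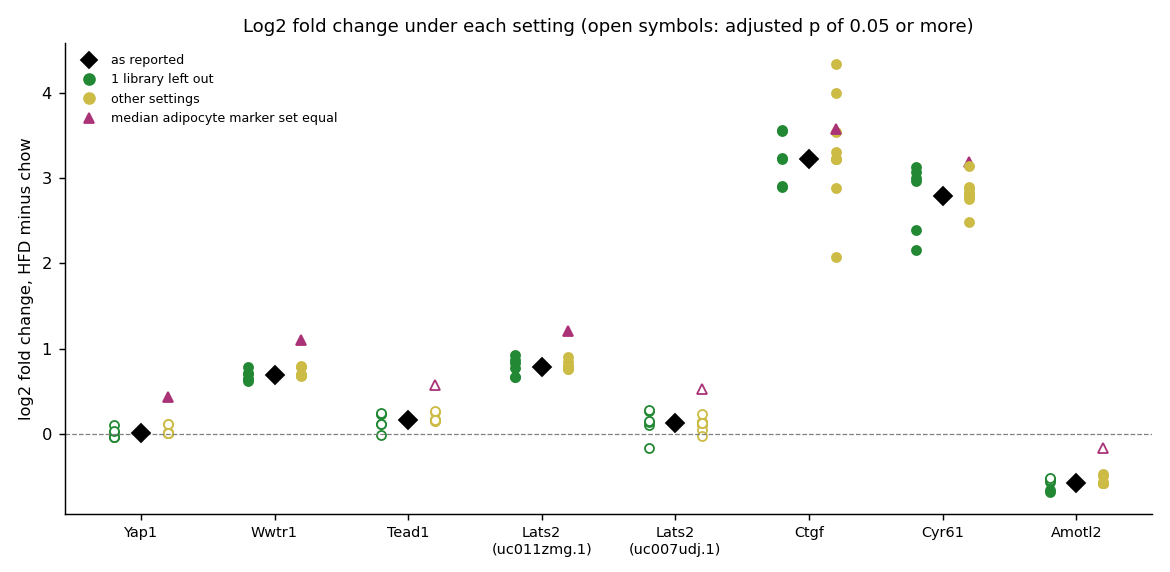
Log2 fold change (y axis, HFD minus chow) of each of the 8 rows as reported (black diamond), with 1 library left out (green), under other settings (yellow) and with the median adipocyte marker set equal (purple triangle), where open symbols have an adjusted p of 0.05 or more. Ctgf spans 2.08 to 4.33 and Cyr61 2.16 to 3.19, all above 0 and filled, while the Amotl2 symbols are open for that scaling and for 2 of the 6 libraries left out.

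The other genes of the pathway were read from lists of textbook members. A YAP/TAZ target signature of 22 symbols had 18 in the table. Beside the member rows, it had 14 tested rows, of which 8 rose, 3 fell and 3 did not pass, where 19.1% of all rows rose and 16.0% fell. The median log2 fold change was 0.69 against -0.004 for all rows. Myof, a ferlin of membrane repair, stood at 21.4, 17.4 and 12.6 CPM on chow against 115, 57.3 and 89.9 CPM on HFD. Its diets did not overlap, and its log2 fold change was 2.26 (SE 0.26, adjusted p by limma 0.00025).

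The 3 that fell were F3, Ccdc80 and Ptpn14. F3, the tissue factor gene that starts blood coagulation, stood at 83.3, 79.9 and 69.6 CPM on chow against 29.2, 36.5 and 29.0 CPM on HFD (log2 fold change -1.27, SE 0.14, adjusted p by limma 0.000217). Ccdc80, a secreted matrix protein gene abundant in fat, fell from 3653 ± 664 to 1790 ± 199 CPM (SD, n = 3 each), a log2 fold change of -1.02. Ptpn14, a phosphatase gene whose product binds YAP1, stood at 252, 208 and 286 CPM on chow against 181, 153 and 143 CPM on HFD, without overlap. Its log2 fold change was -0.64, and its call was lost without HFD replicate 3 (limma adjusted p 0.0503) and under the scaling to the median adipocyte marker (-0.22, limma adjusted p 0.269). The signature thus moved in both directions, and the strongest falls lay outside the members.

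Genes of the Hippo kinase cascade were called about as often as all rows. The list of 25 symbols, all in the table, had 23 tested rows beside the members, of which 6 rose, 2 fell (Ptpn14 and Wtip) and 15 did not pass, where 35.1% of all rows were called. Their median was -0.03. Lats1, the sister kinase gene of Lats2, stood at 185, 199 and 180 CPM on chow against 151, 171 and 176 CPM on HFD. These did not overlap, but Lats1 was not called (log2 fold change -0.18, limma adjusted p 0.271). Of the upstream kinase genes, Stk4 rose by 0.47, from 51.9 ± 4.71 to 71.9 ± 3.02 CPM (SD, n = 3 each), and lost its call without HFD replicate 2 or 3 (limma adjusted p 0.0634 and 0.0727). Stk3 differed by 0.12 (limma adjusted p 0.525).

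Nf2, the gene of the scaffold merlin that recruits the LATS kinases, averaged 198 ± 18.4 CPM on chow against 161 ± 12.4 CPM on HFD (SD, n = 3 each; log2 fold change -0.30, limma adjusted p 0.0961). The largest rise in the list was that of Dchs1, a giant cadherin gene, from 3.20, 1.83 and 1.09 CPM to 14.4, 7.31 and 8.34 CPM (log2 fold change 1.86, limma adjusted p 0.00234), which was 1.08 with 5 CPM added. The kinase gene Taok3 and the FERM-domain gene Frmd6 rose by 0.97 and 0.89, and Frmd6 lost its call without chow replicate 3, HFD replicate 1 or HFD replicate 3 (limma adjusted p 0.0501, 0.0664 and 0.0770). Wtip, a LIM-domain gene of the Ajuba family, fell by 0.57 with a limma adjusted p of 0.0359. Its call was lost in 5 of the 6 fits with 1 library left out, with equal totals (limma adjusted p 0.0884) and under the scaling to the median adipocyte marker (-0.20, limma adjusted p 0.495).

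The cofactors that compete for TEAD moved in opposite directions. Vgll3, which encodes a vestigial-like protein that binds TEAD, stood at 97.7, 137 and 97.0 CPM on chow against 280, 320 and 331 CPM on HFD. Its libraries did not overlap, and its log2 fold change was 1.49 (SE 0.16, adjusted p by limma 0.000148). Vgll4, whose product competes with YAP1 for TEAD, stood at 52.7, 41.6 and 38.3 CPM on chow against 27.7, 21.3 and 23.3 CPM on HFD (log2 fold change -0.85, SE 0.17, adjusted p by limma 0.00433). Under the scaling to the median adipocyte marker Vgll4 was not called (-0.44, limma adjusted p 0.139).

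Among the other TEAD genes, Tead2 rose from 1.04, 0.503 and 0.277 CPM to 3.66, 2.64 and 4.29 CPM (log2 fold change 1.5, limma adjusted p 0.00463). For this low gene the size was 0.60 with 5 CPM added and 2.72 with the deposited log2 values. Tead3 (-0.29, limma adjusted p 0.306) and Tead4 (0.41, limma adjusted p 0.441) did not pass. Of the CCN family, the table held Wisp2 and Nov beside Ctgf and Cyr61. Wisp2 was the one of these 4 with the largest log2 fold change (5.64), a size that was 3.88 with 5 CPM added and 7.1 with the deposited log2 values, as Wisp2 was at 0.412 to 0.655 CPM on chow. Nov did not pass (0.45, limma adjusted p 0.300).

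**Figure D3:**
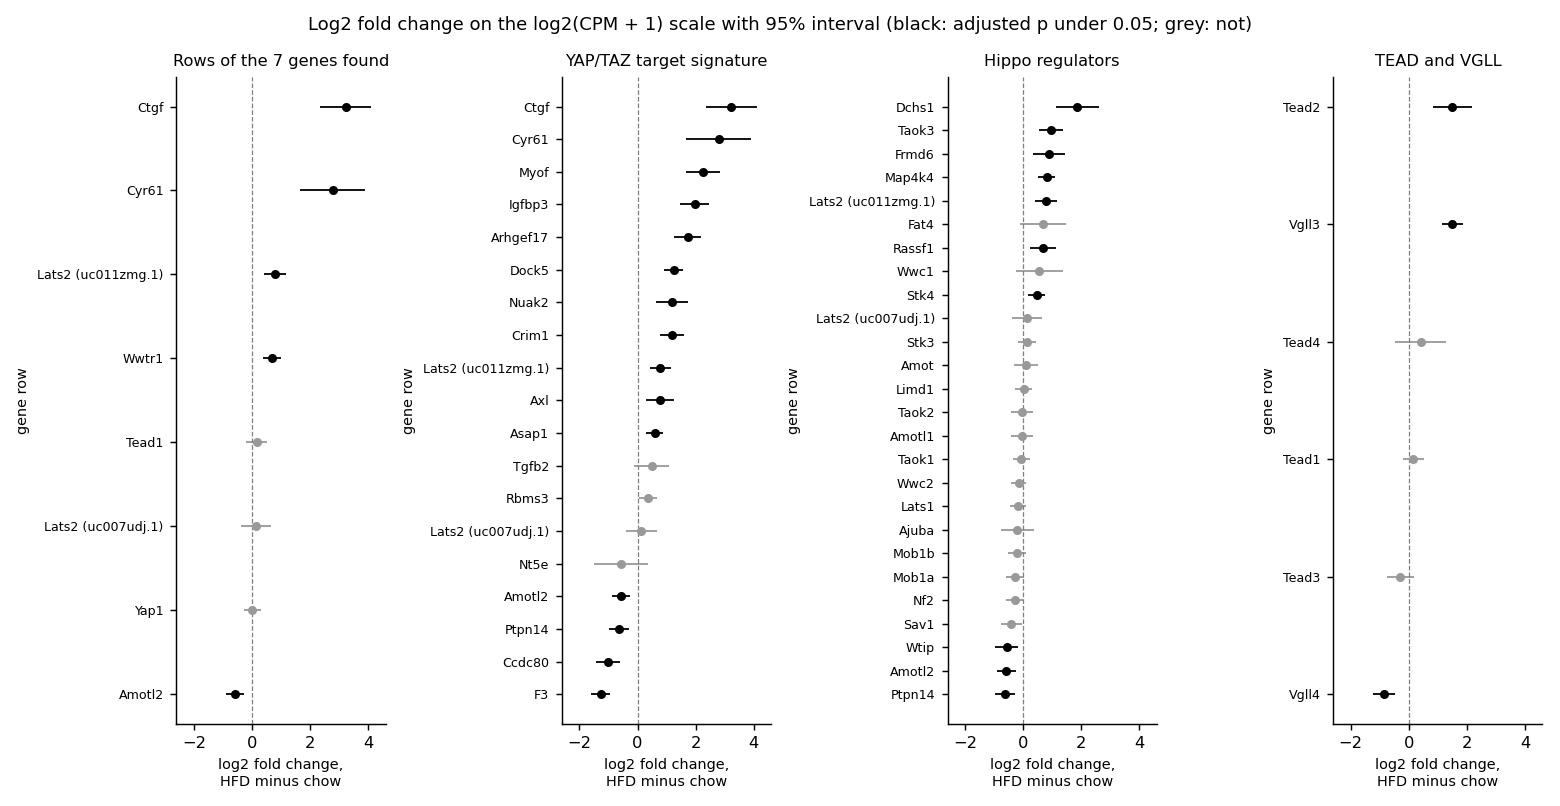
Log2 fold change on the log2(CPM + 1) scale (x axis, HFD minus chow) with its 95% interval, by gene row, for the 8 rows and 3 pathway lists, in black where the adjusted p was under 0.05. Ctgf and Cyr61 lead the signature, F3 (-1.27) and Ccdc80 (-1.02) are at its lower end, most Hippo regulators lie near 0, and Vgll3 and Vgll4 lie on opposite sides.

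Markers of several other cell types moved with the rises of Ctgf and Cyr61. Of 12 endothelial markers 11 were called higher, where 19.1% of all tested rows rose and 16.0% fell. Their summed level was 36.5 to 93.0 CPM in chow and 171 to 335 CPM in HFD. Of 11 tested smooth muscle and pericyte markers 10 were higher, with sums of 393 to 470 and 1197 to 1499 CPM. Of 12 macrophage markers 11 were higher and 1 lower, with sums of 79.5 to 104 and 301 to 468 CPM. The sums of these 3 lists were higher in every HFD library, as were Ctgf and Cyr61. Diets did not overlap for 50.2% of all tested rows.

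Of 9 tested mesothelial markers 4 were higher and 0 lower, where 19.1% of all tested rows rose and 16.0% fell. Their sums were 23.1 to 37.2 CPM in chow and 55.3 to 162 CPM in HFD. The mesothelial sum was thus also higher in every HFD library. The fibroblast and progenitor markers had 5 higher and 1 lower of 12, and their sums overlapped, at 1916 to 2874 and 1478 to 2986 CPM. Col3a1 alone held 67.8% to 79.6% of the chow sums, and without it the sums were 586 to 691 CPM in chow and 852 to 1345 CPM in HFD, with no overlap. The adipocyte markers, which check the labelled cell type, were abundant in all libraries, with 3 higher and 9 lower of 21. Their sums were 42233 to 63466 CPM in chow and 36528 to 41138 CPM in HFD, lower in every HFD library. Adipoq itself fell from 2260 to 1477 CPM, a call that was lost without HFD replicate 1, 2 or 3 (limma adjusted p 0.0594, 0.0571 and 0.112). No row of these lists was at the lowest value of the table in all libraries. Of the 11 lymphocyte markers 1 was in the table.

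The library with the highest Ctgf and Cyr61, HFD replicate 3, also had the highest mesothelial sum (162 CPM, against 55.3 and 55.6 CPM in HFD replicates 1 and 2). The endothelial and macrophage sums were instead highest in HFD replicate 1, as was the fibroblast and progenitor sum without Col3a1 (1345 CPM). HFD replicate 1 had the lowest Ctgf of the HFD libraries. Cyr61 was lowest among them in HFD replicate 2 (85.0 CPM, against 90.5 CPM in HFD replicate 1). The smooth muscle and pericyte sum was highest in HFD replicate 2 (1499 CPM), and lowest among the HFD libraries in HFD replicate 3 (1197 CPM). Expressed against the chow mean, Ctgf stood 3.03 to 4.42 and Cyr61 2.18 to 3.41 higher in HFD on a log2 scale, and the endothelial sum 1.55 to 2.52, the macrophage sum 1.72 to 2.35, the smooth muscle and pericyte sum 1.47 to 1.80 and the mesothelial sum 0.77 to 2.32. Mylk held 65.1% to 73.9% of the smooth muscle and pericyte sum in chow, and without it that sum stood 2.41 to 2.93 higher, within the range of Cyr61. The largest changes among smooth muscle and pericyte markers, on the log2(CPM + 1) scale, were 3.18 (Acta2) and 3.17 (Tagln), against 3.23 for Ctgf. The part of these cell types in the levels of Ctgf, Cyr61 and the other members was not tested.

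**Figure D4:**
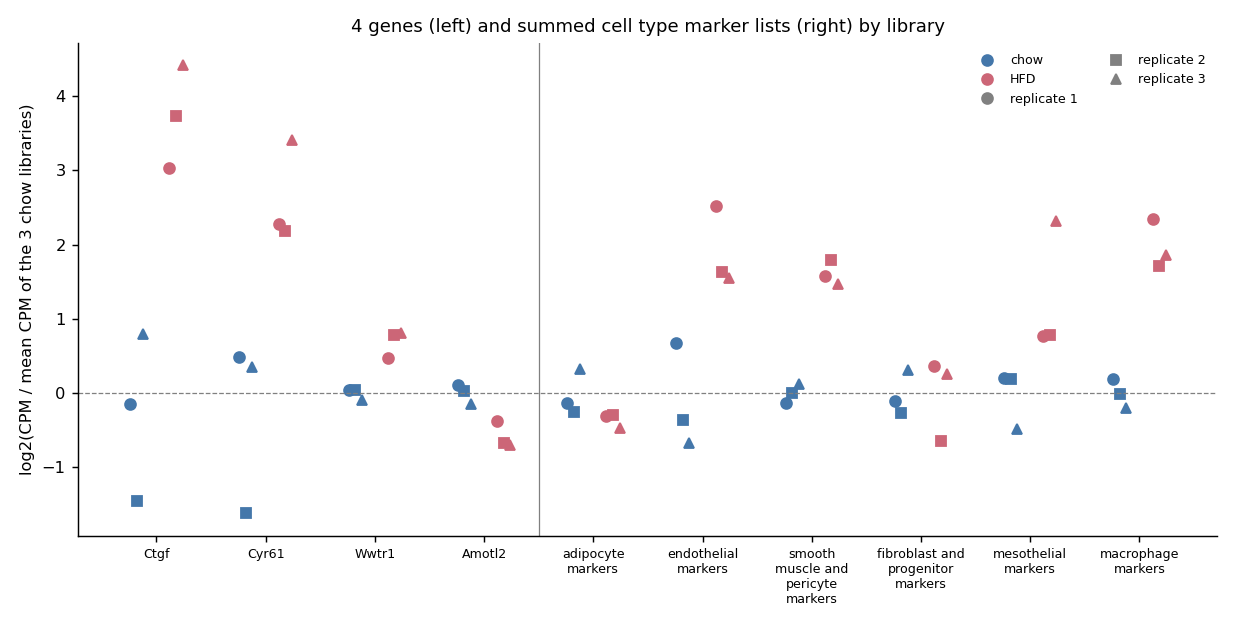
Level relative to the mean of the 3 chow libraries (y axis, log2 ratio of CPM) of Ctgf, Cyr61, Wwtr1 and Amotl2 (left) and of 6 summed marker lists (right) in each library. Endothelial, smooth muscle, mesothelial and macrophage sums are higher in all HFD libraries, and the mesothelial sum is highest in HFD replicate 3. The adipocyte sum is lower in all HFD libraries. Ctgf in HFD (3.03 to 4.42) lies above every marker sum, though not above every single marker.

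The genes whose pattern over the 6 libraries was most like that of each member were sought among rows with a mean of at least 10 CPM, by Pearson's r of log2(CPM + 1). For Ctgf these were Stk17b (r = 0.998) and Bcat1 (r = 0.996), and for Cyr61 Cgnl1 and Nuak1 (r = 0.989 and 0.985). For Wwtr1 they were Ldb3 (r = 0.997) and Prrx1 (r = 0.994), and for Amotl2 Ppp6r3 and Six5 (both r = 0.996). For Yap1 they were Aptx and Lamtor4 (r = 0.989 and 0.988), and for Tead1 Rnf150 and Sh3d19 (r = 0.963 and 0.959). The Lats2 row uc011zmg.1 was nearest to Sptlc2 and Tecr (r = 0.995 and 0.993), and the row uc007udj.1 to Map3k3 and Sbf2 (r = 0.995 and 0.992). Among the members, r was 0.96 between Ctgf and Cyr61, 0.94 between Ctgf and Wwtr1, and -0.97 between Ctgf and Amotl2. These coefficients rest on 6 libraries that share the diet contrast and are descriptions of these libraries. The named genes were the highest of 8731 or 8732 candidates per member, and over 6 libraries such picking can by itself give high values.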

How the data were processed

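Per the labels' protocols, ribosome-bound RNA went through rRNA depletion and an unstranded tagmentation kit, with 3 libraries per diet and HiSeq2500 reads. HISAT2, Picard, featureCounts, edgeR and build mm10 appear in the submitters' processing notes; what each did, its version and any filter on low genes is not given in the sources used here. Each library has 1 column of log2 CPM, deposited by the authors. CPM was taken as a power of 2, and log2(CPM + 1) of rows with a mean of at least 1 CPM was fitted by limma (version 3.58.1, R 4.3.3; empirical Bayes, mean-variance trend on, no block), after a check on simulated data. Fold changes on this scale understate those of low genes. Effective depth was recovered from the steps of values under 20 reads, all whole within 0.1 of a read. The members, gene lists and alternatives were chosen with earlier results of these data known. All members are named; from each list, at most 3 called genes per direction are named, if their mean reached 5 CPM, plus a fixed set of Hippo, TEAD and marker genes, and Nov was named after its values were seen. For each member, the pair of genes with the highest Pearson's r is named, predicted symbols left out. Positions and promoters are from RefSeq for GRCm38.p6, matched by symbol or synonym. Gene spans of Wwtr1, Lats2 and Ctgf overlap other RefSeq genes, so reads from shared exons could not be told apart. Alternatives were other pseudocounts, filters, scalings, voom weights on recovered reads, no variance trend, a replicate block and each library left out. Leaving out the most abundant gene of each marker list, and the factor genes of the SRF list, was chosen after seeing the data.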

Additional observations from a re-analysis of the deposited data

How the results depend on the processing

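Wwtr1, the Lats2 row uc011zmg.1, Ctgf and Cyr61 were called higher in all 17 alternatives, Amotl2 was called in 14 and Yap1 in 1. The number of members called lower was 0 to 1 with a library left out and 0 with the median adipocyte marker set equal. That scaling gave 3997 higher and 455 lower rows in the whole table, and 0 lower Hippo regulators, 0 lower TEAD and VGLL genes, 2 lower signature genes and 0 lower immediate early genes. It raised the median of all genes to 0.39, so falls were fewer by construction. With the longer letters ACATTCC, 3 instead of 5 member genes held the promoter match. Equal totals gave 0 lower immediate early genes, and a mean of at least 5 CPM left 1 higher TEAD or VGLL gene, since Tead2 was no longer tested. With a library left out, lower rows in the whole table numbered 1162 (without HFD replicate 3) to 1740 against 1863 with all 6, lower Hippo regulators 0 to 3, lower signature genes 2 to 5, lower SRF and MRTF genes 0 to 1 and lower immediate early genes 0 to 1; the fits have fewer samples. Higher counts also varied with a library left out, at 5 to 7 for Hippo regulators and 5 to 7 for SRF and MRTF genes. Quantile normalization turned the majority of calls from higher (54.4%) to lower (46.4% higher), and equal totals made 65.3% higher.

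Uncalled values that changed sign were Yap1 (-0.033 to 0.11), Tead1 (-0.0050 to 0.25), the Lats2 row uc007udj.1 (-0.16 to 0.28) and Pdgfra (-0.11 to 0.49) with a library left out, the Lats2 row uc007udj.1 with voom weights (-0.023), Tead4 with quantile normalization (-0.27), and Lats1 (0.24), Nf2 (0.12) and Tead3 (0.079) with the median adipocyte marker set equal; the cause was not tested.

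With a replicate block, 2594 rows were higher and 2245 lower, and no member call changed. A block cannot alter the mean HFD rise in the difference between Wwtr1 and Yap1 (0.67), so it is no check on that size. Deviations of same-numbered libraries correlated at 0.43, 0.23 and 0.09, in each case the highest value for that HFD library. Libraries of unlike number correlated at -0.39 to 0.15, and chow replicate 3 correlated better with HFD replicate 2 (0.15) than with its own number. The labels do not say that the numbers mark pairs, and the main fit did not take them as pairs. The value of 1 read was 0.135 CPM for chow replicate 3, compared with 0.0254 to 0.0431 CPM for the others, which limits Ctgf and Tead2 in chow.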

Other observations

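Other gene groups that share regulators or members with the YAP/TAZ targets were also followed. Of 8 TGF-beta-SMAD target genes, 6 rose and 0 fell, where 19.1% of all rows rose and 16.0% fell, with a median log2 fold change of 1.05. The number that rose was 4 to 6 with a library left out, and 4 with no variance trend. Col1a1, which had the largest change of the list (2.36), also stands in the fibroblast marker list. Tgfbi, a secreted matrix gene, rose from 6.54 ± 1.04 to 24.5 ± 0.859 CPM (SD, n = 3 each). Of 11 genes of the SRF and MRTF list, 7 rose and 0 fell, with a median of 0.85. The list holds the factor genes Srf, Mkl1 and Mkl2, which did not pass; without these 3, 7 of 8 rose. The largest were Acta2 (3.18), Tagln (3.17) and Myl9 (1.71, or 1.13 with 5 CPM added). Acta2 and Tagln also stand in the smooth muscle list, whose sums were higher in all HFD libraries.

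Of 10 immediate early genes, 5 rose, 1 fell and 4 did not pass, against 19.1% of all rows that rose and 16.0% that fell. Fos, an AP-1 factor gene, rose from 1.37 ± 0.357 to 21.8 ± 7.19 CPM (SD, n = 3 each), without overlap (log2 fold change 3.23, limma adjusted p 3.49e-05). Atf3 and Egr1 rose by 2.54 and 1.85. With 5 CPM added, and with the deposited log2 values used directly, the changes were 2.04 and 3.98 for Fos, 1.30 and 3.67 for Atf3, and 1.04 and 2.40 for Egr1. The 1 that fell was Jun, from 81.5 ± 12.1 to 57.1 ± 3.48 CPM (SD, n = 3 each; log2 fold change -0.50), a call lost with equal totals (limma adjusted p 0.119), with the median adipocyte marker set equal, and in 5 of the 6 fits with a library left out.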
